A study of Rattus norvegicus with 15 samples.

Results

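The genes examined here were 10 genes of interleukin-6 (IL6) family signalling and of the C/EBP transcription factors. They were measured in cultures exposed to x-rays that the authors named rat brain microvascular endothelial cells (BMECs). The genes were taken by symbol, with the unnamed transcripts that the authors assembled in the same locus, and they were 10 of the 37367 genes in the table. The members were the ligands Il6 and Lif, the receptors Il6st, Lifr and Osmr, the transducer Stat3, the feedback inhibitor Socs3, and the C/EBP factors Cebpb, Cebpd and Cebpg. Primary BMECs were cultured from the cerebral cortex of Sprague-Dawley littermate rats aged 2 to 3 weeks, of both sexes, and poly-A RNA was sequenced in 15 libraries, 3 in each of 5 groups. The control group was unexposed and otherwise handled in the same way, and the others received 5 Gy or 20 Gy of x-rays and were collected 12 h or 24 h later. The labels give the unexposed cells 12 h of culture, so at 24 h the effect of exposure and that of a longer culture cannot be told apart. No label ties a library to an animal, so p-values measure the spread between these cultures.

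Cytokines of the IL6 family share one signalling receptor chain, gp130, which is encoded by Il6st. Ligands such as LIF bring gp130 together with a further chain, such as the LIF receptor or the oncostatin M receptor. The kinases bound to the signalling chains then phosphorylate STAT3, which moves to the nucleus and switches on genes such as Socs3. SOCS3 binds gp130 and its kinases and shuts the signal off. C/EBP-beta and C/EBP-delta are transcription factors of inflammation and the acute phase that bind the Il6 promoter and are themselves targets of the pathway, while C/EBP-gamma lacks an activation domain and pairs with other proteins of its kind. In brain vessels these cytokines are known to act on the barrier and on leukocyte entry.

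Values are FPKM, the fragments per transcript length and library size that the authors deposited for each transcript, summed here over the transcripts of a gene. A gene passed the test, and is said to have risen or fallen, where the two-sided limma p, adjusted by Benjamini-Hochberg, was under 0.05 and the log2(FPKM + 1) values differed by 1.5-fold or more, a scale which understates the change of genes with a low FPKM. The libraries held 5.44 to 7.49 aligned gigabases, as read from the steps between low FPKM values. Of the 10 members, 9 had a mean FPKM of at least 0.5 and were tested among 17895 genes, and Il6 was not. Each of these 9 had a mean of at least 0.506 FPKM in every group. A two-sided exact permutation test of 3 libraries against 3 cannot give a p below 0.1, and that value marks groups that do not overlap.

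The endothelial label, which is the name given by the authors, was checked against 12 marker genes, of which 11 had a row. Most of these did not bear it out. Tie1 and Emcn were listed at 0 in all 15 libraries. The highest value of any library was 0.385 FPKM for Tek, 0.275 for Cdh5, 0.218 for Esam, 0.11 for Vwf and 0.033 for Cldn5. Other genes of the list were higher, with group means of 2.72 to 4.10 FPKM for Flt1, 1.09 to 2.08 for Ocln and 0.323 to 0.812 for Kdr. The summed endothelial list was 25.1 to 32.7 FPKM in the control group, 16.5 to 22.4 and 18.4 to 24.1 12 h after 5 Gy and 20 Gy, and 21.6 to 28.9 and 21.6 to 22.9 at 24 h, most of it from the glucose transporter Slc2a1. The sum of 6 fibroblast genes was 1798 to 1987 FPKM in the control group, 1437 to 1547 and 1273 to 1378 at 12 h, and 284 to 314 and 272 to 326 at 24 h. Of the 6, 5 fell at 24 h after each dose, beside 20.8% of all genes after 5 Gy and 23.3% after 20 Gy. Pdgfra did not fall, with means of 52.1 FPKM in the control group and 60.8 and 51.6 at 24 h. The sum of 8 pericyte genes, with Kcnj8 and Abcc9 listed at 0 throughout, was 154 to 161 FPKM in the control group, 105 to 127 and 114 to 129 at 12 h, and 75.0 to 89.1 and 50.6 to 78.2 at 24 h. Most of it came from Anpep (means of 96.7 in the control group and 47.3 to 72.1 after exposure) and Pdgfrb (44.5 and 11.7 to 34.2). Rgs5 was listed at 0 in 13 libraries, and Notch3 went the other way (0.153 and 0.330 to 1.78). The sum of 8 microglia and macrophage genes was 22.1 to 26.8 FPKM in the control group and 8.77 to 20.0 in the exposed groups, nearly all of it from Tmem119 (means of 23.1 in the control group and 10.9 to 18.0 after exposure). The sum of 5 astrocyte genes was 11.6 to 13.8 and 18.3 to 31.9 FPKM, most of it from Aldh1l1 (9.52 and 20.8 to 24.1), while Slc1a2 had means of 2.35 and 0.822 to 1.38 and Gfap of 0.119 at most. The leukocyte gene Ptprc, the microglial gene Cx3cr1 and the astrocyte gene Aqp4 were listed at 0 in every library. In bulk RNA, fewer cells of a type and less RNA per cell cannot be told apart, and the values given here cannot be assigned to endothelial cells. A sum of 7 heat shock genes, in which Hspa8, a gene that every cell uses, was listed at 0 in a locus with several names, was 214 to 238 FPKM in the control group, 185 to 212 and 203 to 228 at 12 h, and, 24 h after 5 Gy and 20 Gy, 1904 to 2626 and 7321 to 8789. The part of these shifts in the values given here was not tested.

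The Il6 and Cebpb promoters are shown first because Il6 is known to be switched on through short DNA motifs that bind C/EBP, CREB and NF-kB proteins, and Cebpb through motifs of the CREB kind. The sequences are the 250 bases before the start of each gene in RefSeq, build GRCr8, written 5′ to 3′ on the strand of the gene. They lie at chr4:5894576-5894825 on the minus strand for Il6 and at chr3:176816755-176817004 on the plus strand for Cebpb. Capitals mark the motif letters found. In the Il6 window these are TGACGTCA, the cyclic AMP response element (CRE), at bases 162 to 155 before the start, TTGTGCAA, a C/EBP motif, at bases 152 to 145, and GGGATTTTCC, an NF-kB motif, at bases 68 to 59. In the Cebpb window the capitals mark the CRE core TGACG, or its reverse complement CGTCA, at bases 234 to 230, 107 to 103 and 61 to 57.
Il6: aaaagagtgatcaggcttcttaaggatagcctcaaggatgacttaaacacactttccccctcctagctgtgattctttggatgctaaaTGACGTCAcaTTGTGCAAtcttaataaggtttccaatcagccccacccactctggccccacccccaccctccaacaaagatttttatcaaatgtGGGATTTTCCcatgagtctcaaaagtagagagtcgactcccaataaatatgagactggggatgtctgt
Cebpb: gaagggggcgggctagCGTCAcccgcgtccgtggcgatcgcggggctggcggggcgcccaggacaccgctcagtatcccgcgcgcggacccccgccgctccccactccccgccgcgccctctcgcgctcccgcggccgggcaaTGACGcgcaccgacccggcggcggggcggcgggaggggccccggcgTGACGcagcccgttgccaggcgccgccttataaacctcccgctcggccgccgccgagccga

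RefSeq windows were matched by symbol for 8 of the 10 members, and none was held for Lif and Cebpd. Each motif was searched on both strands: STAT TTCNNNGAA, C/EBP TTGCNNAA, AP-1 TGANTCA, CRE TGACGTCA, heat shock GAANNTTC, the CRE core TGACG, which the CRE contains, and the usual NF-kB consensus. Of all 33469 windows of 250 bases, 1.59% held the CRE, 18.2% its core, 9.22% the C/EBP motif, 6.33% the NF-kB motif, 7.67% the STAT motif, 6.34% the AP-1 motif and 7.23% the heat shock motif. Besides Il6 and Cebpb, the Osmr window held TGATTCA, an AP-1 motif, at bases 33 to 27, and the Socs3 window held GGGGTGCCCC, an NF-kB motif, at bases 161 to 152. The windows of Il6st, Lifr, Stat3 and Cebpg held none of these letters. The windows of Il6st, Lifr, Osmr, Stat3 and Socs3 start from RefSeq starts that lie inside the gene, at 11360, 11602, 241, 154 and 1207 bases from its outer end, so other starts of these genes were not searched. A match is a description of letters and not of binding, and the NF-kB consensus and the CRE core were chosen after the data were seen.

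Il6 RNA (Rnor_6.0 chr4:3043231-3047807, 1 annotated transcript) was listed in the 24 h groups only. The gene was listed at 0 in 10 of the 15 libraries, which were every control and 12 h library and 1 library 24 h after 20 Gy. The other 5 libraries held 0.336, 0.378 and 0.331 FPKM 24 h after 5 Gy, and 0.609 and 0.751 FPKM 24 h after 20 Gy. All 3 libraries 24 h after 5 Gy lay above the control libraries (exact permutation p = 0.1), whereas the groups overlapped after 20 Gy because of the library at 0 (exact permutation p = 0.4). The values 24 h after 5 Gy correspond to 14 to 16 reads of 150 bases per library and the highest value after 20 Gy to 34. On the log2(FPKM + 1) scale, group means of 0.348 and 0.453 FPKM against 0 cannot reach the fold limit, so the test of all genes has no bearing on Il6. The inflammatory cytokines Il1a and Il1b, known inducers of Il6, were listed at 0 in all 15 libraries, and Tnf reached 0.027 FPKM at most.

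Lif (chr14:84482674-84502260), which encodes the ligand of the LIF receptor, rose in all 4 exposed groups and had the largest change of the 9 tested members at 24 h. The control libraries held 0.31, 0.652 and 0.556 FPKM. The libraries held 2.01, 1.85 and 2.03 FPKM 12 h after 5 Gy, and 2.73, 2.64 and 2.44 FPKM 12 h after 20 Gy. At 24 h they held 11.5, 11.4 and 14.3 FPKM after 5 Gy and 8.12, 7.56 and 9.27 FPKM after 20 Gy. No 2 of the 5 groups overlapped, in the order 24 h after 5 Gy, 24 h after 20 Gy, 12 h after 20 Gy, 12 h after 5 Gy and control. Against the control group, the log2 change was 0.98 ± 0.117 (SE, n = 3) 12 h after 5 Gy (limma adjusted p = 0.000115) and 1.26 ± 0.117 12 h after 20 Gy (adjusted p = 1.86e-05). At 24 h it was 3.15 after 5 Gy (adjusted p = 6.54e-10) and 2.63 after 20 Gy (adjusted p = 3.11e-09). From 12 h to 24 h, Lif rose by 2.17 on the log2 scale after 5 Gy and by 1.37 after 20 Gy. At 24 h the 20 Gy libraries lay below the 5 Gy libraries, with a log2 difference of -0.52 (adjusted p = 0.0254) that was short of the fold limit, and without replicate 3 of the 20 Gy group it was -0.59 and passed.

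In the exposed groups the value of Lif came almost wholly from 2 transcripts that the authors assembled and did not name. In the control group, the annotated transcript held 76.4% of the summed FPKM, with a mean of 0.387. Its share was 1.3% to 5.9% after exposure, with a mean of 0.053 to 0.19. The assembled transcripts MSTRG.7987.2 and MSTRG.7987.3 begin inside the annotated gene, at 84496288 and 84497066, and reach to 84502260, past the annotated end at 84500642. They had means of 6.58 and 5.62 FPKM 24 h after 5 Gy and of 5.90 and 2.31 FPKM 24 h after 20 Gy. At 12 h after 5 Gy neither assembled transcript passed alone, with log2 changes of 0.79 and 0.93 (limma adjusted p = 0.279 and 0.276 among transcripts), and after 20 Gy MSTRG.7987.2 did (1.48, adjusted p = 0.0379) and MSTRG.7987.3 did not (0.53, adjusted p = 0.615). Both passed at 24 h after each dose. The 3 transcripts overlap, and a change in their use and a change in how the reads were divided among them cannot be told apart.

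**Figure D1:**
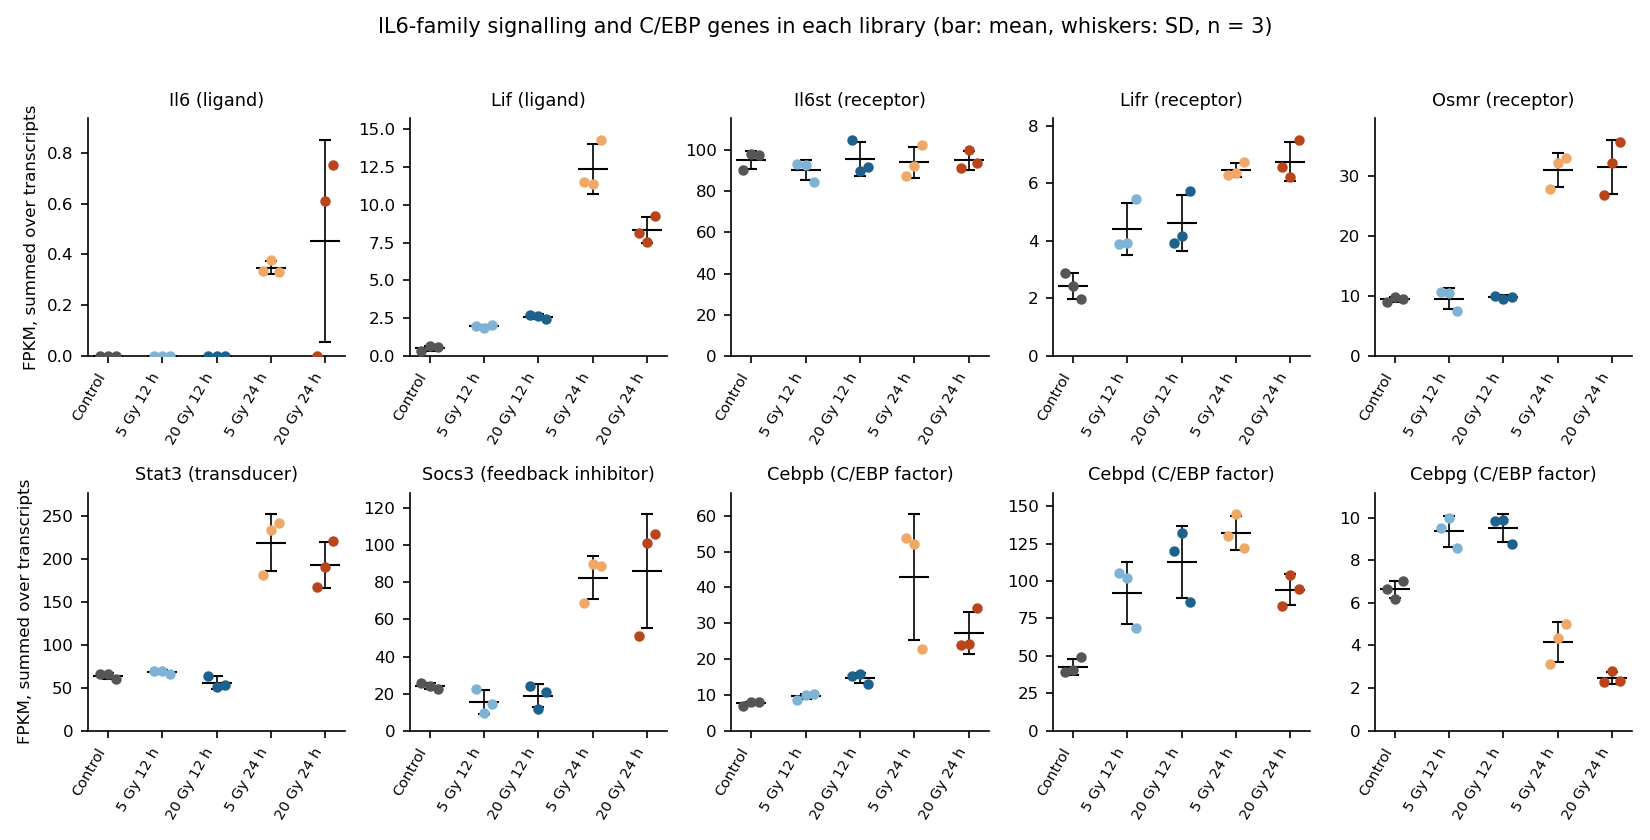
FPKM of each of the 10 genes (y axis, linear, from 0, a scale for each gene) in the 5 groups (x axis), with 1 point per library, a bar at the mean of 3 libraries and whiskers of 1 SD. Osmr, Stat3 and Socs3 are high in the 24 h groups only, Il6st is level at means of 90.2 to 95.6 FPKM, and Cebpg is highest at 12 h and lowest at 24 h.

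Among the receptors, Il6st (chr2:44279171-44319447), the shared chain gp130, was abundant and did not pass the test in any comparison. The control libraries held 90.2, 97.9 and 97.6 FPKM, and the group means of the exposed cells were 90.2 to 95.6 FPKM. All 5 groups overlapped. The 95% interval of the log2 change at 12 h was -0.25 to 0.10 for 5 Gy and -0.17 to 0.18 for 20 Gy, and at 24 h it was -0.20 to 0.16 and -0.18 to 0.17, all short of 1.5-fold. At least 99.8% of the summed value in each group came from 1 assembled transcript, MSTRG.12214.1, and the annotated transcript had a mean of 0.188 FPKM at most.

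Lifr (chr2:56382290-56489415), the chain that binds LIF, rose in all 4 exposed groups. The control libraries held 2.88, 2.44 and 1.98 FPKM. The libraries held 3.88, 3.91 and 5.45 FPKM 12 h after 5 Gy and 3.93, 4.17 and 5.72 FPKM 12 h after 20 Gy. They held 6.28, 6.36 and 6.74 FPKM 24 h after 5 Gy and 6.55, 6.20 and 7.51 FPKM 24 h after 20 Gy. The control group, the 12 h groups and the 24 h groups did not overlap, while the 2 doses overlapped at each time. The log2 change from the control group was 0.65 ± 0.148 (SE) at 12 h and 1.13 ± 0.148 at 24 h after 5 Gy (limma adjusted p = 0.00827 and 2.69e-05), and 0.70 at 12 h and 1.18 at 24 h after 20 Gy (adjusted p = 0.00632 and 1.98e-05). The 12 h changes were close to the fold limit. Without replicate 3 of the control group or of the 5 Gy group, the 12 h change after 5 Gy was 0.56 or 0.52 and did not pass, and without replicate 3 of the 20 Gy group the 12 h change after 20 Gy was 0.57 and did not pass. The annotated transcript alone, which was 94.6% of the control value and 31.5% of the value 24 h after 20 Gy, had log2 changes of 0.28 and 0.39 at 12 h and 0.69 and -0.33 at 24 h, for 5 Gy and 20 Gy, and none passed, the last of them in the other direction (adjusted p = 0.644 among annotated transcripts).

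Osmr (chr2:56108978-56163242), the oncostatin M receptor chain, rose at 24 h after both doses. The libraries held 8.90, 9.78 and 9.51 FPKM in the control group, 10.6, 10.5 and 7.46 12 h after 5 Gy, and 10.0, 9.48 and 9.82 12 h after 20 Gy. At 24 h they held 27.7, 32.1 and 32.9 FPKM after 5 Gy and 26.7, 32.1 and 35.6 after 20 Gy. The control and 12 h groups overlapped with each other, and every 24 h library lay above all of them. The log2 change at 24 h was 1.61 ± 0.129 (SE) after 5 Gy and 1.63 ± 0.129 after 20 Gy (limma adjusted p = 3.68e-07 and 3.64e-07). At 12 h it was 0.00 and 0.05, with 95% intervals of -0.28 to 0.28 and -0.23 to 0.33. Of the 24 h value, 34.9% after 5 Gy and 34.8% after 20 Gy came from MSTRG.12294.5, an assembled transcript that was listed at 0 in all control and 12 h libraries and held 7.11 to 14.2 FPKM in the 24 h libraries. The transcript with the highest mean, MSTRG.12294.6, had a log2 change of 1.12 after 5 Gy (adjusted p = 0.0461) and 0.84 after 20 Gy (adjusted p = 0.131).

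**Figure D2:**
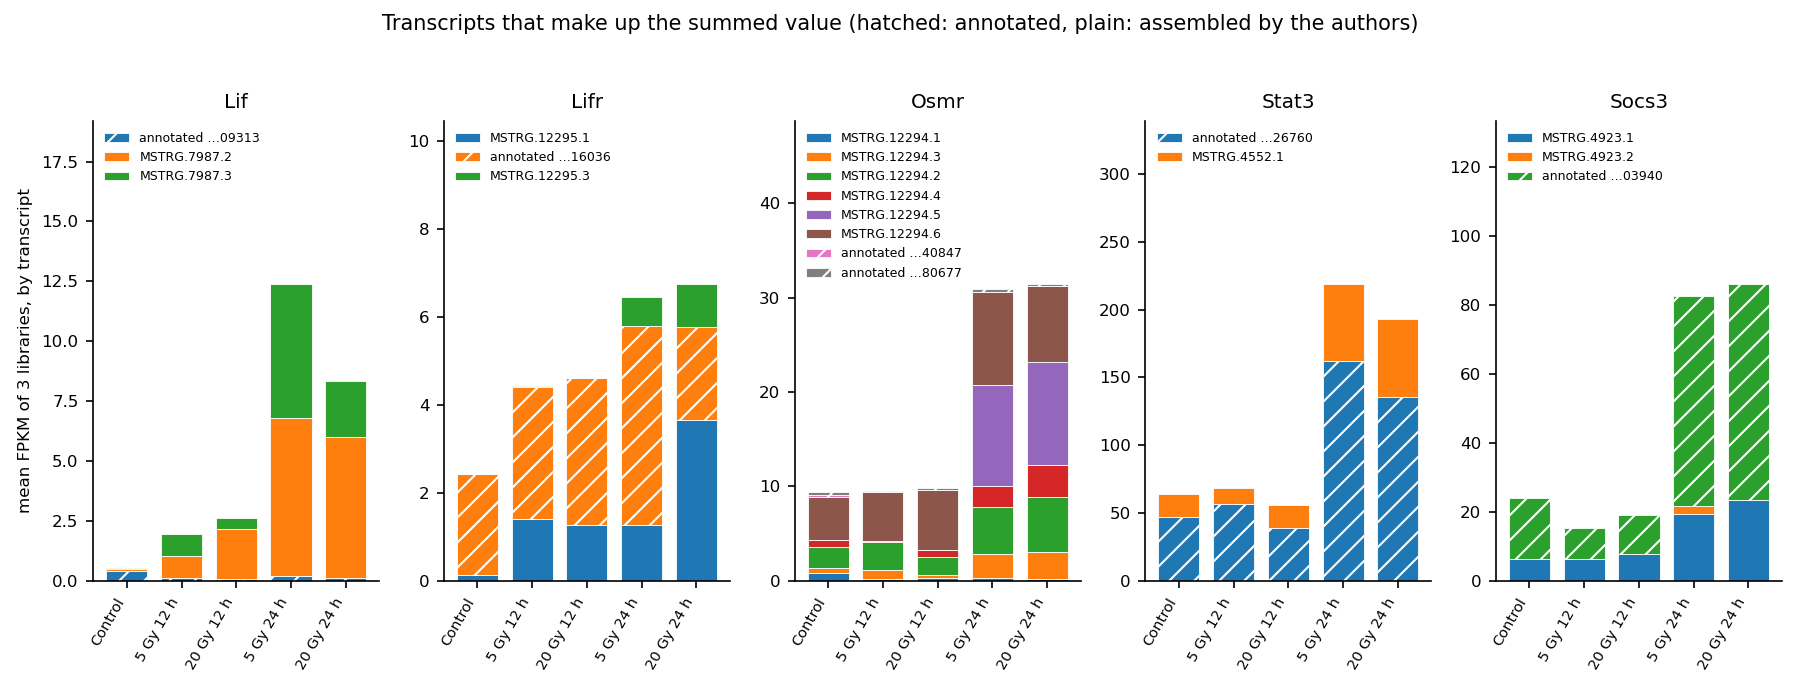
Mean FPKM of 3 libraries (y axis, linear, from 0) of each transcript of Lif, Lifr, Osmr, Stat3 and Socs3, stacked for the 5 groups (x axis), with annotated transcripts hatched and assembled ones plain. Lif in the exposed groups and Osmr in every group are made almost wholly of assembled transcripts, while Stat3 and Socs3 keep their annotated transcript as the larger part in every group.

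Stat3 (chr10:88790408-88842233), the transcription factor that carries the signal to the nucleus, rose at 24 h. The libraries held 66.3, 65.7 and 59.6 FPKM in the control group, 69.9, 69.9 and 65.9 12 h after 5 Gy, and 64.2, 50.3 and 53.0 12 h after 20 Gy. At 24 h they held 182, 234 and 242 FPKM after 5 Gy and 167, 191 and 221 FPKM after 20 Gy. The lowest 24 h library held more than the highest library of the other groups, and the 2 doses overlapped. The log2 change was 1.75 ± 0.128 (SE) 24 h after 5 Gy and 1.57 ± 0.128 24 h after 20 Gy (limma adjusted p = 1.77e-07 and 4.70e-07), and 0.10 and -0.20 at 12 h (adjusted p = 0.637 and 0.339). Both Stat3 transcripts rose at 24 h, the annotated one by 1.74 and 1.5 and MSTRG.4552.1 by 1.75 and 1.68 on the log2 scale after 5 Gy and 20 Gy.

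Socs3 (chr10:106973853-106977920), the inhibitor that STAT3 induces, also rose at 24 h. The control libraries held 25.6, 24.0 and 22.5 FPKM. The libraries held 22.3, 9.70 and 14.2 FPKM 12 h after 5 Gy, 23.9, 11.7 and 21.0 12 h after 20 Gy, 69.1, 89.7 and 88.7 24 h after 5 Gy, and 50.8, 101 and 106 24 h after 20 Gy. Replicate 1 of the 20 Gy group at 24 h was the lowest of the 24 h libraries, and it is the library in which Il6 was listed at 0. All 24 h libraries lay above the control and 12 h libraries. The log2 change at 24 h was 1.73 ± 0.326 (SE) after each dose (limma adjusted p = 0.000527 after 5 Gy and 0.000554 after 20 Gy). At 12 h, all 3 libraries after 5 Gy lay below the control group, with a log2 change of -0.68 that did not pass (adjusted p = 0.172, exact permutation p = 0.1). The assembled transcript MSTRG.4923.1 rose by 1.46 and 1.66 on the log2 scale at 24 h, while the annotated transcript, which was near 0 in 1 library of each 12 h group (0.152 and 0.192 FPKM), changed by 1.73 and 1.71 with adjusted p = 0.266 and 0.27.

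Among the C/EBP factors, Cebpb (chr3:164424515-164425910) rose at 24 h after both doses. The libraries held 7.0, 7.91 and 7.86 FPKM in the control group, 8.60, 9.88 and 10.1 12 h after 5 Gy, and 15.2, 15.7 and 13.1 12 h after 20 Gy. At 24 h they held 53.8, 52.2 and 22.7 FPKM after 5 Gy and 23.8, 24.2 and 34.2 FPKM after 20 Gy. The control, 12 h and 24 h groups did not overlap, and replicate 3 of the 5 Gy group at 24 h stood apart from the other two, below every library of the 20 Gy group. The log2 change was 2.26 ± 0.256 (SE) 24 h after 5 Gy and 1.71 ± 0.256 24 h after 20 Gy (limma adjusted p = 7.75e-06 and 8.93e-05). At 12 h it was 0.29 after 5 Gy (adjusted p = 0.478) and 0.86 after 20 Gy (adjusted p = 0.0363), and the latter was lost without any one of the 6 libraries of its 2 groups (adjusted p = 0.065 to 0.101), with no filter (0.0536) and with quantile normalization (0.0508). The rise of 0.84 from 12 h to 24 h after 20 Gy was 0.68 without replicate 3 of the 20 Gy group at 24 h and no longer passed (adjusted p = 0.0596).

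Cebpd (chr11:89008008-89009146) rose in all 4 exposed groups and was the member with the highest level among the C/EBP factors, per length. The control libraries held 39.0, 40.2 and 49 FPKM. The libraries held 105, 102 and 68.5 FPKM 12 h after 5 Gy and 120, 132 and 85.7 FPKM 12 h after 20 Gy. They held 130, 145 and 122 FPKM 24 h after 5 Gy and 83.5, 104 and 94.7 FPKM 24 h after 20 Gy. Every exposed library lay above the control group, and replicate 3 was the lowest at 12 h after each dose. The log2 change was 1.07 after 5 Gy and 1.36 after 20 Gy at 12 h, and 1.61 and 1.12 at 24 h (SE 0.182 each), with limma adjusted p = 0.00142, 0.000334, 7.69e-06 and 0.000175. The neighbouring exposed groups overlapped in the order of their means, which was 24 h after 5 Gy, 12 h after 20 Gy, 24 h after 20 Gy and 12 h after 5 Gy.

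Cebpg (chr1:91287917-91296656) moved the other way at 24 h. The libraries held 6.66, 6.20 and 7.04 FPKM in the control group, 9.52, 10.0 and 8.57 12 h after 5 Gy, and 9.84, 9.92 and 8.75 12 h after 20 Gy. At 24 h they held 3.15, 4.35 and 5.00 FPKM after 5 Gy and 2.30, 2.82 and 2.31 FPKM after 20 Gy. The 12 h libraries lay above the control group and the 24 h libraries below it, and the 2 doses overlapped at 12 h and not at 24 h. Cebpg fell 24 h after 20 Gy, with a log2 change of -1.14 (limma adjusted p = 7.5e-06). The other changes from the control group were under the fold limit, at 0.44 and 0.46 12 h after 5 Gy and 20 Gy (adjusted p = 0.0288 and 0.0266) and -0.58 24 h after 5 Gy (adjusted p = 0.00163). The last of these passed without replicate 2 of the control group (-0.62) and without replicate 2 or 3 of the 5 Gy group at 24 h (-0.61 and -0.70). It also passed with a pseudocount of 0.1 (-0.68) and with quantile normalization (-0.62). From 12 h to 24 h, Cebpg fell, with a log2 change of -1.02 after 5 Gy and -1.60 after 20 Gy.

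**Figure D3:**
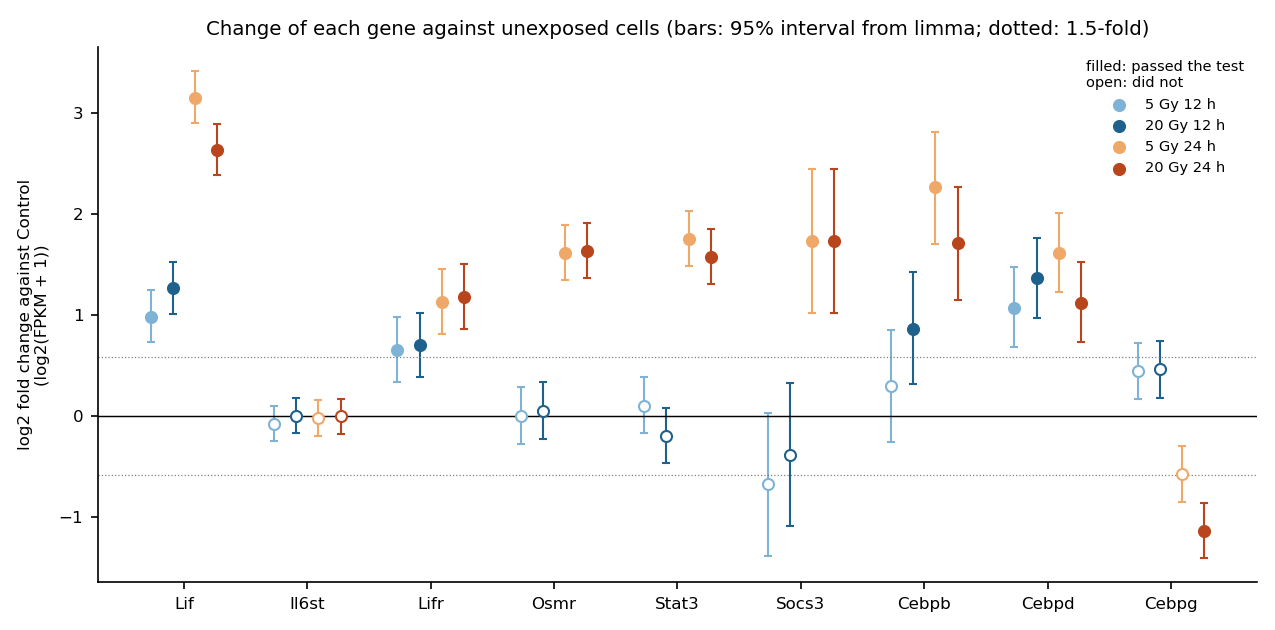
Log2 fold change from the control group on the log2(FPKM + 1) scale (y axis) of the 9 tested genes (x axis) in the 4 exposed groups, with 95% intervals from limma and dotted lines at 1.5-fold. Lif, Lifr and Cebpd pass at 12 h and 24 h, Osmr, Stat3 and Socs3 at 24 h only, and Il6st lies near 0 throughout.

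Counted over the 9 tested members, 3 rose 12 h after 5 Gy (Lif, Lifr and Cebpd) and 0 fell, beside 4.98% and 4.96% of all 17895 genes. At 12 h after 20 Gy, 4 rose, with Cebpb in addition, and 0 fell, beside 4.90% and 3.64%. No member had a lower value at an unadjusted limma p under 0.05 in either 12 h comparison. At 24 h after 5 Gy, 7 rose and 0 fell, beside 20.5% higher and 20.8% lower of all genes. Cebpg was lower there at a limma adjusted p of 0.00163 and missed the fold limit alone (-0.58). At 24 h after 20 Gy, 7 rose and 1 fell, beside 17.0% and 23.3%. The median log2 change of the 9 members was 0.29 after 5 Gy and 0.46 after 20 Gy at 12 h, and 1.61 and 1.57 at 24 h, against 0.03, 0.01, -0.05 and -0.14 over all genes. The exposed groups were all compared with the same 3 control libraries. Of the 17 member transcripts that passed the filter, 12 rose and 0 fell 24 h after 5 Gy, beside 12.1% and 12.0% of 41932 transcripts, and 12 rose and 1 fell 24 h after 20 Gy, beside 10.6% and 13.6%. At 12 h, 1 rose after 5 Gy (that of Cebpd), beside 2.08% higher and 2.24% lower, and 2 after 20 Gy (that of Cebpd and MSTRG.7987.2 of Lif), beside 1.92% and 1.77%, and 0 fell. No transcript of Lifr passed at 12 h, and the single transcript of Cebpb, at 0.86 after 20 Gy, had an adjusted p of 0.115 among the limma tests of transcripts. Several of these transcripts passed the filter through their 24 h values.

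Between 12 h and 24 h, 5 members rose (Lif, Osmr, Stat3, Socs3 and Cebpb) and Cebpg fell after each dose. Of all genes, 17.1% were higher and 19.3% lower at 24 h than at 12 h after 5 Gy, and 14.1% and 22.1% after 20 Gy. Osmr changed by 1.61 and 1.58, Stat3 by 1.65 and 1.77 and Socs3 by 2.41 and 2.12 on the log2 scale after 5 Gy and 20 Gy. Lifr changed by 0.47 and 0.48, under the fold limit, and passed without replicate 3 of the 12 h group of the same dose (0.61 and 0.62). Cebpd was higher at 24 h than at 12 h after 5 Gy by 0.54, under the fold limit (adjusted p = 0.0232), which passed without replicate 1 or 2 of the 12 h group or replicate 3 of the 24 h group (0.60 to 0.65). After 20 Gy it was -0.24 (adjusted p = 0.285). The heat shock sum given above was also higher in every 24 h library than in every 12 h and control library, and its part in these changes was not tested.

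No member passed the test between the doses at either time. At 12 h, 0 of the 9 members passed between 20 Gy and 5 Gy, beside 0.117% of genes higher and 0.00559% lower, and 3 had an unadjusted limma p under 0.05 (Lif and Cebpb higher, Stat3 lower after 20 Gy). At 24 h, 0 passed, beside 0.956% higher and 1.46% lower, and 3 had an unadjusted p under 0.05 (Lif, Cebpd and Cebpg, all lower after 20 Gy). Of these, Lif (-0.52) and Cebpg (-0.56) had limma adjusted p = 0.0254 and 0.027 and missed the fold limit alone. Cebpd (-0.49) had an adjusted p of 0.153. The intervals were wide enough to hold a 1.5-fold difference for some members, for example -1.10 to 0.00 for Cebpb at 24 h. Without replicate 3 of the 5 Gy group at 24 h, Cebpb was lower after 20 Gy by a log2 change of -0.95 and passed (adjusted p = 0.0077). Cebpg passed without replicate 1 of the 5 Gy group (-0.71) or replicate 2 of the 20 Gy group (-0.63). It also passed with a pseudocount of 0.1 (-0.71) and after rescaling to TPM (-0.70), where Lif passed too (-0.61). The change over time did not differ between the doses at an adjusted p under 0.05 for any member, beside 0.553% of genes. At an unadjusted limma p under 0.05 it differed for 4 members. The shares of genes in this paragraph are for adjusted p, and those at an unadjusted p are not given here. The difference between the doses in the change over time was -0.80 for Lif (limma adjusted p = 0.0545) and -1.12 for Cebpb (adjusted p = 0.204). It passed without replicate 3 of the 20 Gy group at 24 h for Lif (-0.88) and without replicate 3 of the 5 Gy group at 24 h for Cebpb (-1.52).

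Of 45 other genes of the pathway, 34 were tested. At 24 h after 5 Gy, 10 rose and 8 fell, beside the 20.5% and 20.8% of all genes, with a median log2 change of 0.20. At 24 h after 20 Gy, 9 rose and 8 fell, beside 17.0% and 23.3%, with a median of 0.05. At 12 h, 2 rose and 5 fell after 5 Gy, beside 4.98% and 4.96% of all genes, and 2 rose and 3 fell after 20 Gy, beside 4.90% and 3.64%. Of these, Pias3, an inhibitor of STAT3, rose at both doses (0.59 and 0.62), Socs1 rose after 5 Gy (0.68) and Ddit3 after 20 Gy (0.85). Those that fell were Junb, Pim1 and Zc3h12a after both doses, and Clcf1 (-0.63) and Il1r1 (-1.55) after 5 Gy.

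Among the other ligands, Clcf1, which signals through the CNTF receptor, fell at 24 h (-1.21 after 5 Gy and -1.31 after 20 Gy), from a mean of 8.72 ± 0.535 FPKM (SD, n = 3) in the control group to 3.19 ± 0.069 and 2.93 ± 0.272. Ctf1, cardiotrophin, fell 24 h after 5 Gy (-1.10, limma adjusted p = 0.00937) and was -0.68 after 20 Gy, where it did not pass. None of the 3 tested ligands of this list rose at 24 h, and Osm, a ligand of the OSM receptor, reached 0.155 FPKM at most. Of the 3 other receptors, 2 rose at 24 h and none fell. Of all genes, 20.5% rose and 20.8% fell 24 h after 5 Gy, and 17.0% and 23.3% after 20 Gy. With 3 tested genes in each list, ligands and receptors were not compared. Il6r, the chain that binds IL6, had a mean of 4.47 ± 0.416 FPKM in the control group, 20.8 ± 13.1 24 h after 5 Gy and 13.5 ± 2.77 24 h after 20 Gy, with log2 changes of 1.84 and 1.39 (adjusted p = 0.000864 and 0.00578). Cntfr, the CNTF receptor chain, had log2 changes of 1.43 and 1.22.

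Of the 5 tested kinases and STATs, Jak2, which phosphorylates STAT3 at the receptor, rose at 24 h by 0.79 and 0.74 on the log2 scale after 5 Gy and 20 Gy. Tyk2, another kinase of the family, fell (-0.71 and -1.14), as did Stat5a (-0.93 and -0.79). Jak1, the kinase known as the main one at gp130, stayed between 44.9 and 48.4 FPKM in all 15 libraries. Of the 6 inhibitors, Ptpn2, a phosphatase of the JAK kinases and STATs, rose at 24 h by 0.65 and 0.64.

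Of the 14 genes listed as known STAT3 targets, 11 were tested, and 5 rose and 1 fell 24 h after 5 Gy, beside 20.5% and 20.8% of all genes, and 4 rose and 1 fell 24 h after 20 Gy, beside 17.0% and 23.3%. Junb, a subunit of AP-1, had a mean of 64.2 ± 1.15 FPKM (SD, n = 3) in unexposed cells, 19.9 ± 6.35 after 5 Gy and 36.4 ± 8.84 after 20 Gy at 12 h, and 413 ± 30.5 and 376 ± 26.8 at 24 h. Its log2 change was -1.69 and -0.83 at 12 h and 2.66 and 2.53 at 24 h, all of which passed the test. The kinase gene Pim1 was also lower at 12 h and higher at 24 h, with log2 changes of -1.67 and -1.25 at 12 h and 1.54 and 1.68 at 24 h. Myc rose at 24 h by 2.10 and 2.20 and Hif1a by 0.81 and 0.69, and Vegfa rose 24 h after 5 Gy by 0.88 and was 0.48 after 20 Gy, under the fold limit. Ccnd1, which encodes cyclin D1, did not pass against the control group and fell from 12 h to 24 h after 5 Gy (-0.86, limma adjusted p = 0.0472), with -0.84 after 20 Gy (adjusted p = 0.0533). Timp1 fell (-4.85 and -4.76, SE 1.5), with values in a locus that carries several gene names and is therefore uncertain. Its means were 129 ± 27.8 FPKM in the control group, and 18.1 ± 30.9 and 22.0 ± 37.5 24 h after 5 Gy and 20 Gy. The libraries of each 24 h group thus differed widely for this gene. The adhesion gene Icam1 had means of 125 FPKM in the control group and 124 and 127 FPKM at 24 h.

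Among the other C/EBP family genes, Ddit3, the stress-induced factor CHOP, which pairs with C/EBP-beta, rose at 24 h by 3.27 and 2.54 on the log2 scale. It went from a mean of 3.92 ± 0.917 FPKM (SD, n = 3) in the control group to 47.6 ± 14.3 24 h after 5 Gy and 28.1 ± 8.27 24 h after 20 Gy. Cebpa fell 24 h after 20 Gy (-0.73, limma adjusted p = 0.000325). All 3 tested genes that regulate Il6 messenger RNA or its induction fell at 24 h after both doses, where 20.8% and 23.3% of all genes fell after 5 Gy and 20 Gy. They were Zc3h12a, the nuclease Regnase-1 that degrades Il6 messenger RNA (-0.86 and -1.27), Nfkbiz, the NF-kB cofactor known for its part in Il6 transcription (-1.13 and -0.70), and Il1r1, the interleukin-1 receptor (-1.39 and -1.65). Zc3h12a was also lower 12 h after both doses (-0.79 and -0.96), and Il1r1 12 h after 5 Gy (-1.55, limma adjusted p = 0.0428).

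**Figure D4:**
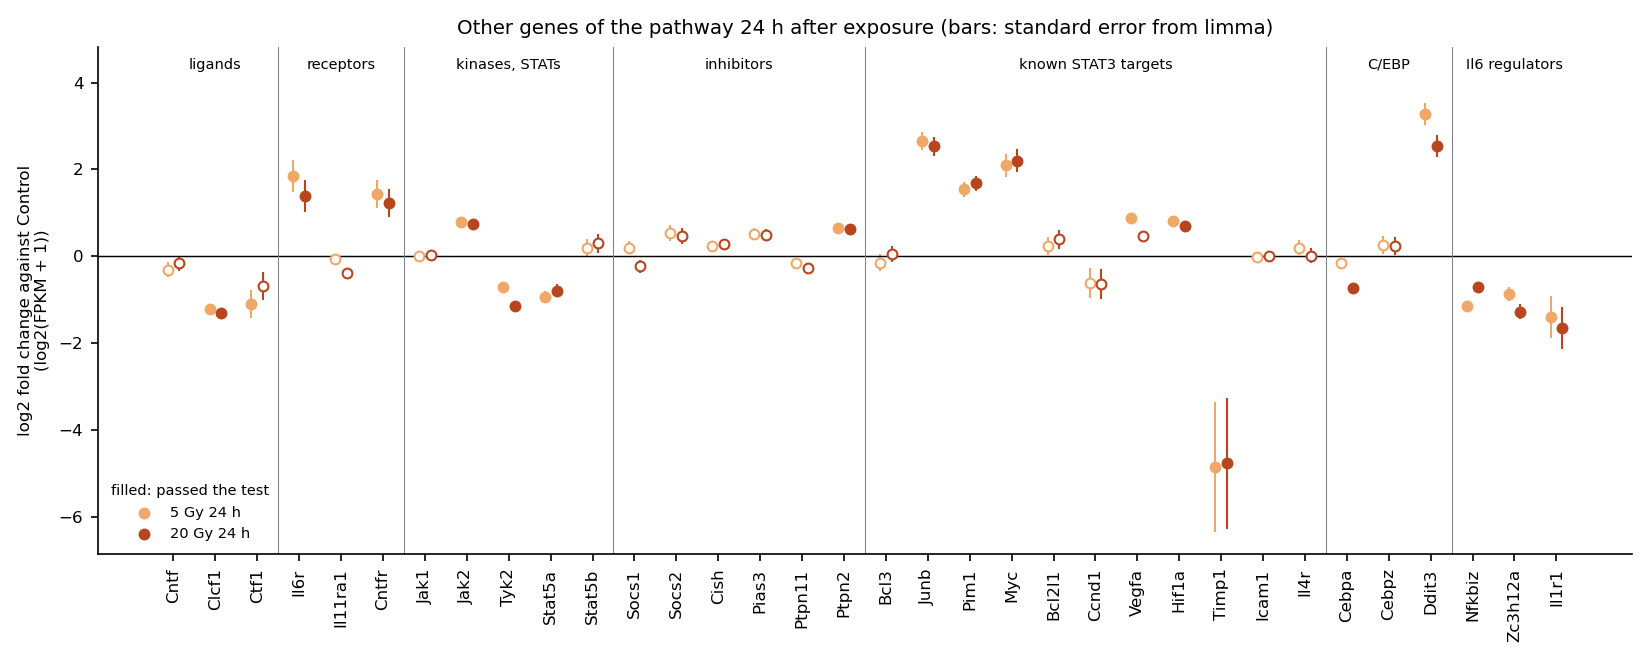
Log2 fold change from the control group on the log2(FPKM + 1) scale (y axis) of the 34 tested pathway genes, grouped by role (x axis), 24 h after 5 Gy and 20 Gy, with bars of 1 standard error. The receptors Il6r and Cntfr and the targets Junb, Pim1 and Myc lie above 0, the ligand Clcf1 and the 3 regulators of Il6 lie below it, and Timp1 has the widest error.

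The genes whose log2(FPKM + 1) was most like that of each member over the 15 libraries were taken from named genes with a mean FPKM of at least 1, as a description without a test. The 15 libraries share 5 group means, so high values of r reflect the large differences between groups. Pearson r was 0.991 for Lif with Enc1, 0.989 with Pid1 and 0.988 with Slc35d1. For Osmr it was 0.996 with Tent5a and 0.991 with Sfmbt2, for Stat3 0.985 with Smtnl2 and Has2, and for Socs3 0.968 with the chemokine gene Cxcl1. For Cebpb it was 0.971 with Aebp2, for Cebpd 0.941 with Ankrd40, for Cebpg 0.987 with Zfp958 and for Lifr 0.973 with Znfx1. Il6st, which varied little between groups, had its highest r, 0.836, with Raph1, and Il6 had 0.932 with Mroh7.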

How the data were processed

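Poly-A RNA of 15 libraries of cultured rat BMECs was sequenced. Per the study's methods and the labels, the authors trimmed the reads with Trimmomatic, mapped them with HISAT2 to Rnor_6.0 and assembled transcripts with StringTie, and they deposited 1 table of FPKM values per transcript, normalized to transcript length and library size. Counts were not analysed here, so no count model was used.

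FPKM was summed per gene over rows with its name and unnamed rows of a locus with that name only. This gave 37367 genes, and 4738 of 85322 rows in loci with several names were left out. Log2(FPKM + 1) was fitted with limma 3.58.1 in R 4.3.3, with a mean for each of the 5 groups (10 residual degrees of freedom) and a variance trend, over 17895 genes or 41932 transcripts whose mean FPKM was 0.5 or more. The test was checked on simulated data. Exact permutation tests of single genes were two-sided.

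Depth came from the FPKM steps of short single-exon transcripts, of which 68.5% to 75.6% per library were whole multiples of 1 aligned base (tolerance 0.05), against 9.41% to 9.70% as the median over other steps.

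All 10 members are named, as are the called genes with a mean FPKM of at least 1 of a list of 45 pathway genes, whose other genes are given by counts. Another 2 listed genes were left out of the list and are not reported here. The members, lists and tests were chosen with earlier results of these data known. The heat shock and marker lists served as checks. Mcl1, Serpina3n, Pecam1 and Hspa1a were not analysed here. Alternatives were another pseudocount, other filters, quantile normalization, rescaling to TPM, fits of 2 groups, no trend, unadjusted p, a 2-fold limit, other sums of transcripts, a replicate block and leaving out each library.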

Additional observations from a re-analysis of the deposited data

How the results depend on the processing

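Counts of members that passed the test changed with the transcripts summed. With annotated transcripts only, 6 members could be tested, and 1, 1, 3 and 4 of them passed 12 h after 5 Gy, 12 h after 20 Gy, 24 h after 5 Gy and 24 h after 20 Gy, in place of 3, 4, 7 and 8. With the single transcript of highest mean FPKM, 1 passed 12 h after 5 Gy, 2 passed 12 h after 20 Gy and 5 passed 24 h after 20 Gy, and in both settings the change of Lifr 24 h after 20 Gy was -0.33 in place of 1.18. With a fold change of at least 2, 1 and 2 passed 12 h after 5 Gy and 20 Gy. Between the doses at 24 h, 1 passed with a pseudocount of 0.1 and 2 after rescaling to TPM. That rescaling also raised the number of all genes called in this comparison, from 433 to 798. For the change over time between the doses, 1 passed without the variance trend and 4 at an unadjusted p. Counts over all genes are not given here for the other settings of this paragraph. With annotated transcripts only, Lifr and Socs3 were still tested at 24 h and did not pass. Their limma adjusted p was 0.303 and 0.222 after 5 Gy and 0.644 and 0.228 after 20 Gy. The cause of these differences between settings was not tested.

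Without 1 library, 2 to 3 members passed 12 h after 5 Gy and 2 to 3 after 20 Gy, 7 to 8 passed 24 h after 5 Gy and 8 after 20 Gy. The counts were 6 to 7 and 5 to 7 from 12 h to 24 h after 5 Gy and 20 Gy, 0 between the doses at 12 h, 0 to 1 at 24 h and 0 to 1 for the change over time between the doses. No other setting turned the sign of a called value. Same-numbered libraries did not deviate together (r from -0.177 to 0.232, median 0.00875), and 4 of 15 correlated best with their own number. With the replicate block, 3 members passed 12 h after 20 Gy, since Cebpb had an adjusted p of 0.0533, and no other call changed among 81.

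Quantile normalization moved the median log2 change of all genes from -0.14 to -0.03 24 h after 20 Gy, and the share of higher genes among those called from 38.9% to 49.8% from 12 h to 24 h after 20 Gy and from 39.5% to 56.9% between the doses at 24 h. The depth limits Il6 most, at 14 to 34 reads in the libraries that held it.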
